A study of Mus musculus with 2 samples.

Results

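Piezo1, Piezo2, Trpv4, Trpm7, Pkd1 and Pkd2 are channels, or partners of channels, that open or are reported to open under membrane stretch, flow or osmotic load. They were taken by their gene symbols, 6 of the 32285 genes counted, and followed through the cell classes of the Achilles enthesis, the place where the tendon inserts into bone. Piezo1 and Piezo2 are large trimeric cation channels that membrane tension opens directly; Piezo2 is best known from touch and stretch sensing neurons and Piezo1 from endothelium and many other cells. Trpv4 is a calcium-permeable channel gated by cell swelling, warmth and lipid messengers and is well studied in cartilage. Trpm7 joins a magnesium- and zinc-permeable channel to a kinase. Pkd1 (polycystin-1) is a membrane receptor and Pkd2 (polycystin-2) a cation channel that assembles with it; both are known from the primary cilium and from polycystic kidney disease.

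The tissue came from SKG mice, a strain whose mutation in Zap70, a T cell receptor kinase, makes the animals prone to arthritis. Cells from mice under tail suspension (TS), which takes load off the hind limbs, were set against cells from mice under non-tail suspension (NTS), with 1 droplet single-cell library for each, so that nothing here has a replicate check. All animals of both groups carry the SKG background. Their age, sex and number, whether animals were pooled, how long suspension lasted and whether arthritis had been induced are not given in the sources used here. No p-value is given. The 95% intervals are exact but reflect the counting of UMIs and nothing else.

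Barcodes with under 300 genes, or with over 20% of their UMIs (unique molecular identifiers, which count captured RNA molecules) from mitochondrial genes, were dropped, as were doublets; 13991 cells of the tail suspension library and 10814 cells of the non-tail suspension library remained, with 156580161 and 118098425 UMIs. The median depth was 8362 UMIs per cell under tail suspension and 4649 under non-tail suspension. In the fibroblast lineage the order was the other way, 12357.5 against 24676.5. The libraries shared 47 barcode sequences, 0.411% of the non-tail suspension barcodes. Clusters were named from marker genes after their values were seen. The fibroblast lineage joins the tendon class (tenocyte-like), the sheath or lining class and the remaining fibroblast-like clusters. It held 6234 cells of the tail suspension library and 1932 of the non-tail suspension library. The tendon marker Tnmd was present in it at 81.3 and 123 UMIs per 1000000. Neutrophil-like cells numbered 1419 and 5299. Levels below are UMIs of a gene per 1000000 UMIs of the class (CPM). They are compared within a gene only, since they are not corrected for gene length.

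Promoter sequence is shown for 3 members. The polycystin pair was chosen because their levels rose and fell across the cell classes more alike than those of any other members. Trpm7 was chosen because its ratio was above 0 in all 9 classes compared. Trpv4, above 0 in all 5 classes in which it was measured, is not shown. Each runs from 250 bases before to 50 bases after the gene start of RefSeq on build GRCm38.p6, 5′ to 3′ on the strand of the gene. Capitals mark the GC box letters GGGCGG (on either strand) in Pkd1, which lies at chr17:24549700-24549999 (plus strand). They mark the TEAD core letters GGAATG in Pkd2, at chr5:104459207-104459506 (plus strand), and the E-box letters CACGTG in Trpm7, at chr2:126876212-126876511 (minus strand).
Pkd1: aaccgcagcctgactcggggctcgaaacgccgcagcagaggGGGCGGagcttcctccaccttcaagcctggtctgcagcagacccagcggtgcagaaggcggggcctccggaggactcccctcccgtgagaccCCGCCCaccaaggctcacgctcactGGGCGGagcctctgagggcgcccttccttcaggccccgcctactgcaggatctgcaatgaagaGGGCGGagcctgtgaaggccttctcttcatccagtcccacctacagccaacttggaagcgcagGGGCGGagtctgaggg
Pkd2: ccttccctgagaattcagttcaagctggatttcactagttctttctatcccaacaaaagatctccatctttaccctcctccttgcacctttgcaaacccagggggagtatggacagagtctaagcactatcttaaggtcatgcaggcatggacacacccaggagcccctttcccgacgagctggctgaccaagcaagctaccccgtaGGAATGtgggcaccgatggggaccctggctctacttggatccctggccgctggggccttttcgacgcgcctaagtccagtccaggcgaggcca
Trpm7: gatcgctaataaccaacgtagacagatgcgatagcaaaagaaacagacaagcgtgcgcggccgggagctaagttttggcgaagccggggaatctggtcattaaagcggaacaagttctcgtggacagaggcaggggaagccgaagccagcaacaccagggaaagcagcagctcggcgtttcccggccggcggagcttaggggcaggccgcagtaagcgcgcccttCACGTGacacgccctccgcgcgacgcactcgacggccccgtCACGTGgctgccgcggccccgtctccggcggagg
Of 32544 mouse promoters of this length, 35.9% held the GC box letters, 14.6% the TEAD core letters and 7.17% the E-box letters. Pkd1 held the GC box letters at 5 places and Trpm7 the E-box letters at 2 places, 25 bases before and 16 bases after the start. The Pkd2 window held no GC box letters and the TEAD core letters once, 43 bases before the start. The CCAAT box letters CCAAT, the TATA box letters TATAAA and the AP-1 letters TGACTCA were in none of these 3 windows; 37.4%, 13.6% and 5.19% of all promoters hold them. The polycystin pair therefore shared none of the 6 letter strings searched in these windows. A match of letters is a description and says nothing about binding.

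On build GRCm38, GENCODE vM21 places Pkd1 at chr17:24549834-24596508 on the plus strand and Pkd2 at chr5:104459450-104505819 on the plus strand. Piezo1 lies at chr8:122481698-122551329, Piezo2 at chr18:63010213-63387183, Trpv4 at chr5:114622152-114658421 and Trpm7 at chr2:126791565-126876230, all on the minus strand. Among genes counted in the files, Piezo1 overlaps Ctu2 on the opposite strand over 2441 bases and Pkd1 overlaps Tsc2 over 693 bases. The use of strand in counting is not stated, so reads from these overlaps cannot be assigned with certainty.

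The members fell into different parts of the tissue. Pkd1, Pkd2 and Piezo2 had the largest shares of their UMIs in the fibroblast lineage, while the level of Piezo1 was high in blood endothelium and that of Trpv4 in macrophage-like cells. Trpm7 was found in every class. Of all Pkd2 UMIs, 87.6% under tail suspension and 89.3% under non-tail suspension came from the fibroblast lineage. The lineage made up 44.6% and 17.9% of the cells. Its cells were deeper, with medians of 12357.5 and 24676.5 UMIs against 8362 and 4649 over all kept cells. Its share of all UMIs was therefore larger than its share of cells. For Pkd1 the lineage gave 82.9% and 85.1% of the UMIs, and for Piezo2 87.2% and 91.5%. Trpm7 was spread more widely, with 58.9% and 50.9% of its UMIs in the lineage, and Piezo1 with 67.1% and 52.1%. In CPM, Trpm7 was at 78.1 and 60.0 in the lineage and at 79.4 and 51.1 over all kept cells. Piezo1 was at 68.2 and 51.2 in the lineage and at 60.9 and 42.7 over all kept cells. Pkd2 was at 169 and 172 in the lineage and at 116 and 83.9 over all kept cells. Trpv4 stood apart, since only 46.3% and 35.1% of its UMIs lay in the lineage while macrophage-like cells held 30% and 52.7%.

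**Figure D1:**
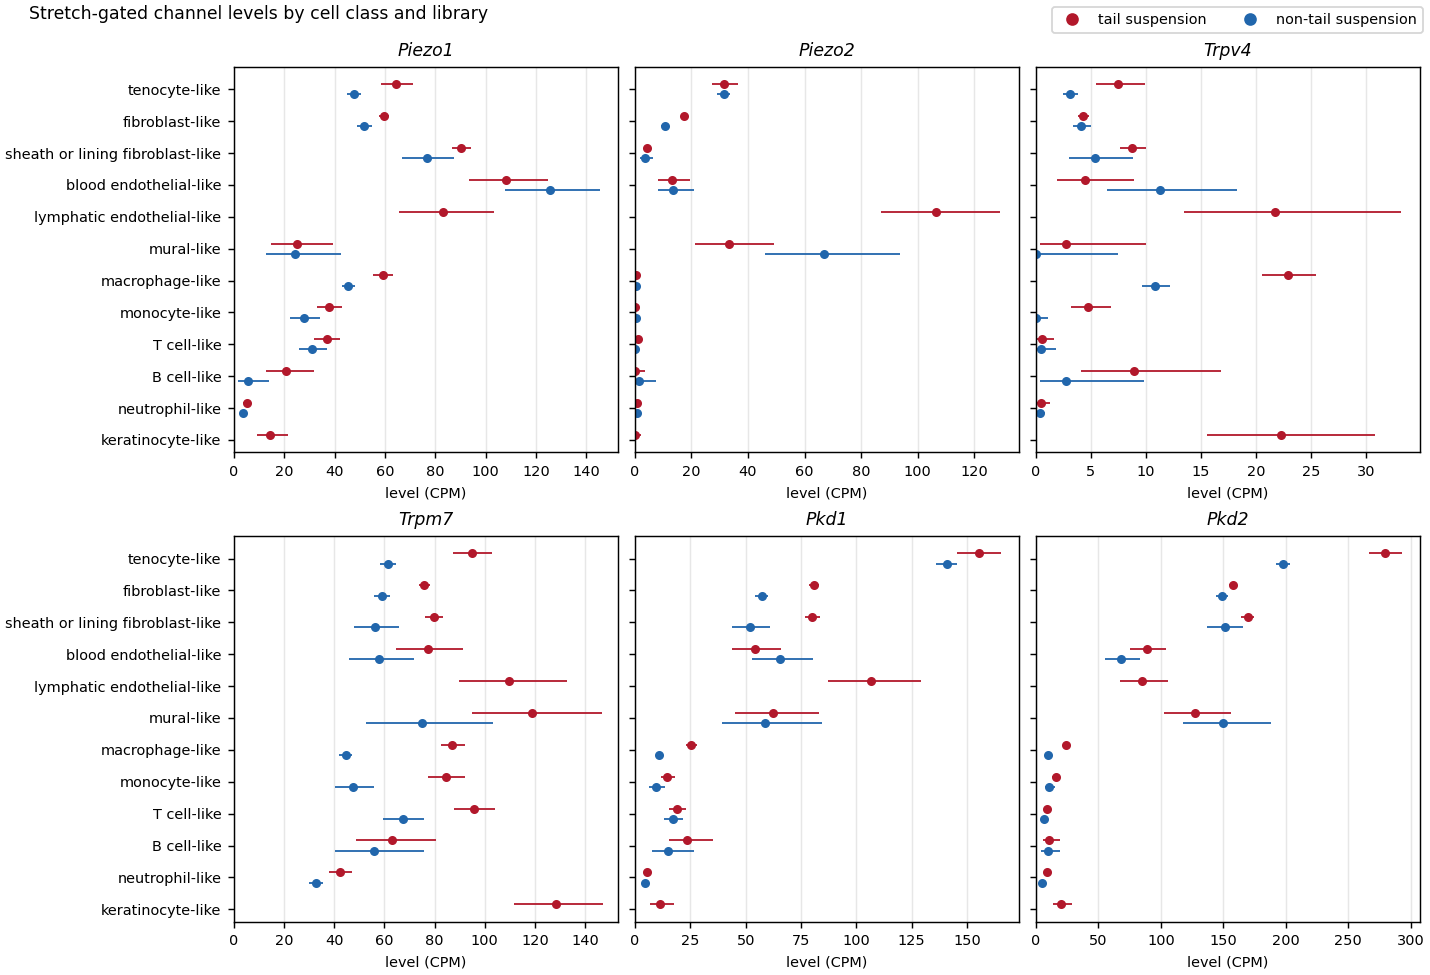
Level of each channel (x axis, CPM, scale set per gene) in 12 cell classes (rows), tail suspension above non-tail suspension, with exact Poisson 95% intervals as bars; classes with under 30 cells in a library have no point there. Piezo2 is near 0 in leukocytes and reaches 107 in lymphatic endothelial-like cells under tail suspension, while Trpm7 is above 30 in every class drawn.

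Piezo1, the broader of the pair of tension-gated channels, had its highest level among classes with at least 50 cells in blood endothelial-like cells, at 108 CPM (93.4 to 125) under tail suspension and 125 CPM (108 to 145) under non-tail suspension, from 168 and 87 cells. Sheath or lining fibroblast-like cells came next at 90.3 and 76.6 CPM. Under tail suspension the intervals of these classes overlapped, and under non-tail suspension they did not. Macrophage-like cells carried 59.1 and 45.3 CPM, T cell-like cells 36.8 and 31.0 CPM and neutrophil-like cells 5.06 and 3.60 CPM, the lowest level among classes with at least 50 cells in each library.

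Piezo2 had its highest level under tail suspension in lymphatic endothelial-like cells, at 107 CPM (87.1 to 129) from 103 UMIs in 152 cells. Their 12 counterparts under non-tail suspension gave 6 UMIs, or 32.2 CPM (11.8 to 70.0). Mural-like cells, the smooth muscle and pericyte class of vessel walls, were at 33.2 CPM in 113 cells of the tail suspension library and 66.9 CPM in 37 cells of the non-tail suspension library. Tenocyte-like cells had 31.6 and 31.4 CPM. In neutrophil-like cells Piezo2 was at 0.62 CPM in both libraries, and in macrophage-like cells at 0.53 and 0.34 CPM. Whether free RNA in the droplets gave these UMIs was not tested.

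Trpv4 was low in most classes. Macrophage-like cells had 22.9 CPM (20.6 to 25.5) under tail suspension, the highest level there, and 10.9 CPM (9.64 to 12.2) under non-tail suspension. Keratinocyte-like and lymphatic endothelial-like cells of the tail suspension library had 22.2 and 21.7 CPM, with intervals that overlapped those of macrophage-like cells. Blood endothelial-like cells of the non-tail suspension library had 11.3 CPM from 16 UMIs, which likewise overlapped. Neutrophil-like cells had 0.49 and 0.39 CPM.

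Trpm7 was present in every class. Its levels reached 129 CPM in keratinocyte-like cells under tail suspension, and mural-like cells had 119 CPM under tail suspension and 75.0 CPM under non-tail suspension. Among classes with at least 50 cells in a library, neutrophil-like cells were lowest in both libraries, at 42.4 and 32.7 CPM. T cell-like cells had 95.7 and 67.3 CPM and tenocyte-like cells 95 and 61.4 CPM.

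Both polycystins were highest in tenocyte-like cells. Pkd1 was at 155 CPM (146 to 165) under tail suspension and 141 CPM (136 to 146) under non-tail suspension there. Pkd2 was at 279 CPM (267 to 293) and 198 CPM (193 to 204). Neutrophil-like cells had 5.43 and 4.67 CPM of Pkd1 and 8.51 and 4.89 CPM of Pkd2. T cell-like cells, which had 9.20 and 6.45 CPM of Pkd2, had 19.0 and 17.1 CPM of Pkd1.

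**Figure D2:**
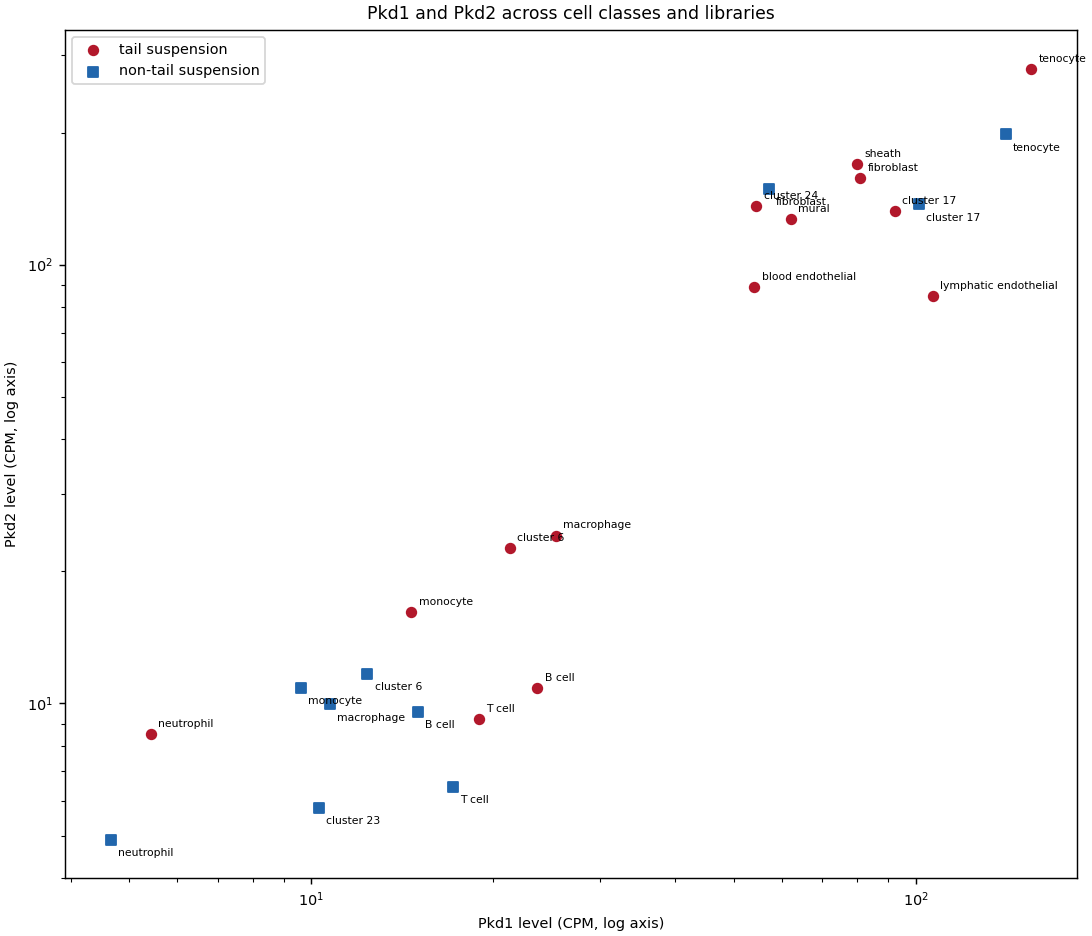
Pkd1 level (x axis) against Pkd2 level (y axis), both in CPM on log axes, with 1 point for each of 24 class and library pairs with at least 100 cells; circles are tail suspension and squares non-tail suspension. Stromal classes sit at the upper right and leukocyte classes at the lower left, with tenocyte-like cells at the top in both libraries (279 and 198 for Pkd2).

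Likeness of pattern was measured as Pearson's r of log2(CPM + 10) over 24 profiles from 15 classes, against 9812 genes; profiles of 1 library share its depth and processing, and r is a description. Pkd2 was the gene most like Pkd1 (r = 0.95), ahead of Frmd6, Osbpl5, Npdc1 and Nrbp2. Much of that r lay between stroma and leukocytes, since r was 0.61 within 8 stromal profiles (fibroblast, endothelial and mural classes) and 0.59 within 10 leukocyte profiles. From the side of Pkd2, Pkd1 ranked 48, and Pam, Synm, Gstm5, Fkbp7 and Nfix came first (r = 0.97 to 0.98). Piezo2 was most like Tmtc1, Fmo1, Pkia, Cdc42ep5 and Tgfb3 (r = 0.93 to 0.95), and Piezo1 most like Dpagt1, Emc1, Rai14, Tmx1 and Tmem65 (r = 0.88 to 0.90). Trpm7 was most like Rc3h1, Zfr, Pkn2, Eif3j1 and Ints6 (r = 0.88 to 0.91). Trpv4 had the weakest likeness of the 6, with Tpcn1, Ccdc152, Gas2l1, Wwp1 and Abca1 at 0.76 to 0.80. Piezo1 and Piezo2 did not track each other closely (r = 0.36).

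Within the fibroblast lineage no member was past 2-fold between the libraries, 0 of 6, where 17.4% of 16392 genes with at least 20 UMIs were. The median log2 ratio, TS over NTS, was 0.18 for the members and 0.07 for all genes. Piezo1, Trpm7 and Trpv4 were higher under tail suspension, Piezo2 and Pkd1 lower, and Pkd2 differed by less than counting error. Piezo1 had 68.2 CPM under tail suspension and 51.2 CPM under non-tail suspension, a log2 ratio of 0.42 (0.35 to 0.48). Trpm7 had 78.1 and 60.0 CPM, a log2 ratio of 0.38 (0.32 to 0.44). Trpv4 had 5.75 and 3.69 CPM, a log2 ratio of 0.64 (0.40 to 0.89), from 539 and 189 UMIs.

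The lower members were Piezo2, at 14.9 and 20.1 CPM with a log2 ratio of -0.43 (-0.55 to -0.32), and Pkd1, at 85.7 and 96.7 CPM with -0.17 (-0.22 to -0.12). Pkd2 had 169 and 172 CPM, a log2 ratio of -0.03 (-0.07 to 0.01). These lineage values pool clusters that the libraries hold in different numbers, and the signs of Piezo2 and Pkd1 depended on where the pooling stopped. In fibroblast-like cells alone Piezo2 was at 17.5 CPM under tail suspension and 10.5 CPM under non-tail suspension, a log2 ratio of 0.73 (0.53 to 0.93), and in tenocyte-like cells at 0.01 (-0.22 to 0.24). Other clusterings turned the fibroblast-like ratio of Piezo2, to -0.65 at Leiden resolution 0.5 and -0.81 when the libraries were clustered separately. Pkd1 had a log2 ratio of 0.50 (0.42 to 0.59) in fibroblast-like and 0.14 (0.04 to 0.24) in tenocyte-like cells. Its fibroblast-like ratio turned to -0.17 and -0.14 under the same clusterings. In fibroblast-like cells 0 of 6 members were past 2-fold, where 19.0% of all genes were.

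The cluster that carried most Piezo2 among fibroblast-like cells, led by Myoc and Sfrp4, made up 1114 of 4328 fibroblast-like cells under tail suspension and 73 of 902 under non-tail suspension. It held 51.2 CPM of Piezo2 under tail suspension and 67.7 CPM under non-tail suspension, a log2 ratio of -0.40 (-0.76 to -0.03). A cluster led by Mmp3 and Cxcl5, with 27 and 578 cells, held 5.59 and 6.98 CPM. In the Pi16 and Clec3b cluster Piezo2 was at 4.62 and 8.56 CPM, a log2 ratio of -0.89 (-1.68 to -0.03), and in the Fbn1 and Lox cluster at 9.28 and 13.1 CPM, with -0.50 (-1.01 to 0.04). Only in the Cxcl14 and Apod cluster was the ratio above 0 among the 4 fibroblast-like clusters with at least 50 cells of each library, at 0.44 (-0.97 to 2.36) from 75 and 4 UMIs. Piezo2 was therefore below the non-tail suspension level in 3 of these 4 clusters, with 2 of their intervals below 0, while their pool was above it.

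Point values in the tendon clusters also went different ways. In the Thbs4 and Cthrc1 cluster, with 96 cells under tail suspension and 898 under non-tail suspension, Piezo2 was at 57.4 CPM (105 UMIs) and 31.2 CPM (739 UMIs), a log2 ratio of 0.88 (0.57 to 1.17). In the Angptl7 and Chad cluster, with 606 and 44 cells, it was at 21.1 and 37.0 CPM. These clusters hold most of the tenocyte-like cells of the tail suspension library (Angptl7 and Chad) and of the non-tail suspension library (Thbs4 and Cthrc1). Pkd2 crossed with intervals apart in each cluster. It had 326 and 194 CPM in the Thbs4 and Cthrc1 cluster. In the Angptl7 and Chad cluster it had 260 CPM (246 to 276) and 335 CPM (294 to 381). Pkd1 was at 179 and 140 CPM in the Thbs4 and Cthrc1 cluster. In Angptl7 and Chad cells it was at 145 CPM (134 to 157) and 169 CPM (140 to 202), with overlapping intervals.

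**Figure D3:**
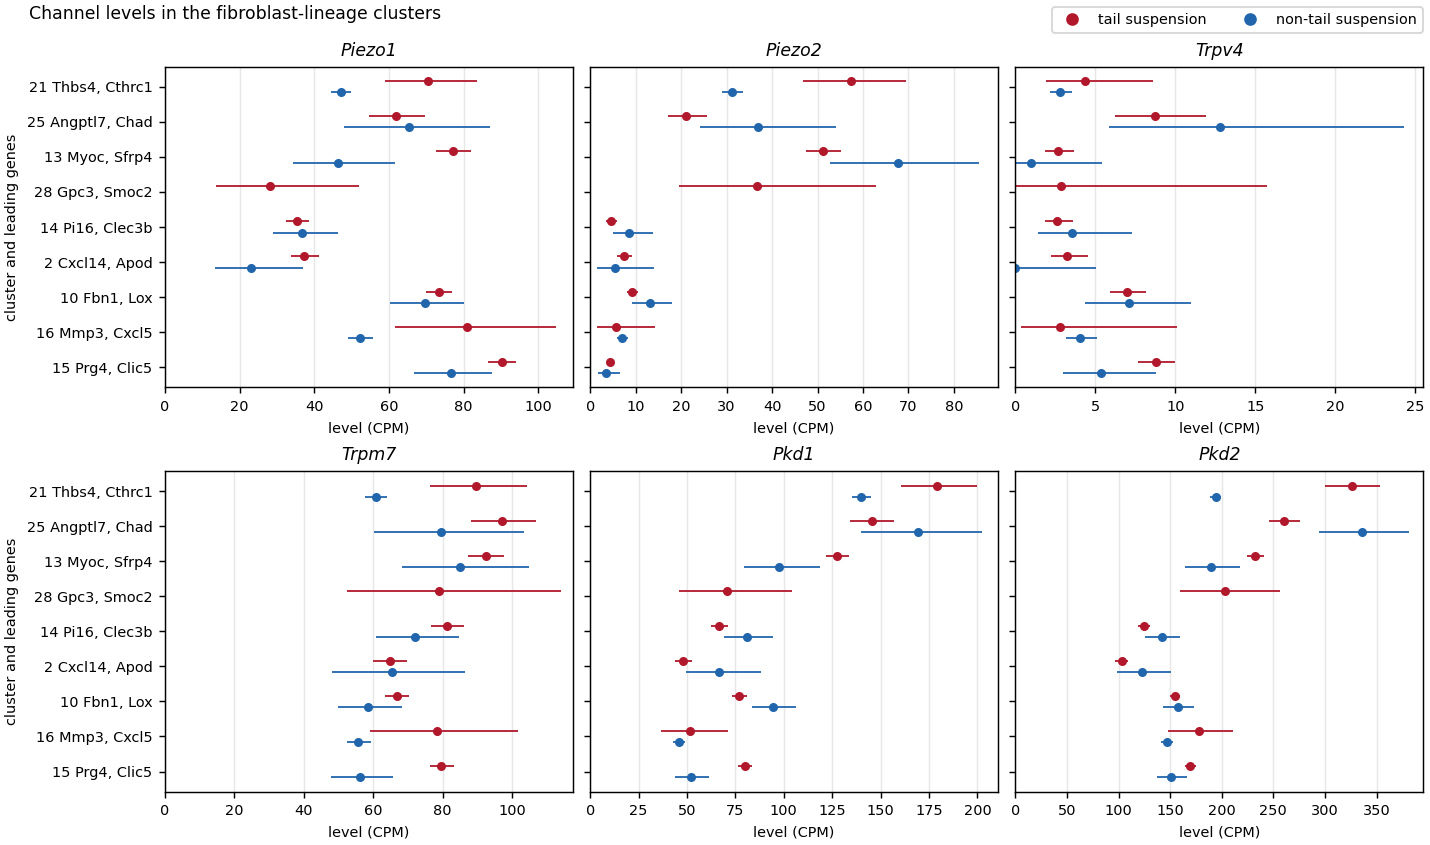
Level of each channel (x axis, CPM, scale set per gene) in the 9 fibroblast-lineage clusters (rows, named by number and 2 of their leading genes), tail suspension above non-tail suspension, with exact Poisson 95% intervals as bars; clusters with under 25 cells in a library have no point there. Piezo2 is high in clusters 21 and 13 (57.4 and 51.2 under tail suspension) and low in cluster 15 (4.40), where Piezo1 is highest under tail suspension (90.3).

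Over the 6 lineage clusters with at least 50 cells of each library, Piezo1 and Trpm7 kept their direction most often of the members. The share of all genes above 0 in as many clusters was not taken. Piezo1 was above 0 in 5 of 6, with log2 ratios of -0.05 to 0.73 and a mean of 0.38. Trpm7 was above 0 in 5 of 6, with -0.01 to 0.56 and a mean of 0.26. Piezo2, Pkd1 and Pkd2 were each above 0 in 3 and below 0 in 3, with means of -0.03, 0.05 and 0.12. Pkd1 was most divided, with 3 intervals above 0 and 3 below. It was at 80.0 CPM under tail suspension and 52.0 CPM under non-tail suspension in the Prg4 and Clic5 sheath or lining cluster, a log2 ratio of 0.62 (0.38 to 0.87). It was at 48.1 and 66.6 CPM in the Cxcl14 and Apod cluster, a log2 ratio of -0.47 (-0.90 to -0.02). Trpv4 could be compared in 5 of these clusters, and all 5 intervals spanned 0.

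Sheath or lining fibroblast-like cells and the Myoc and Sfrp4 cluster differed far more in Piezo2 than in Piezo1, each gene read across clusters. Piezo1 was at 90.3 CPM in 1204 sheath or lining cells and 77.2 CPM in the Myoc and Sfrp4 cluster under tail suspension, and at 76.6 and 46.4 CPM under non-tail suspension. Piezo2 was at 4.40 CPM (3.63 to 5.29) in the sheath or lining cells and 51.2 CPM in the Myoc and Sfrp4 cluster under tail suspension, and at 3.56 and 67.7 CPM under non-tail suspension. None of the 6 members was among the variable genes used to build the clusters.

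In tenocyte-like cells 1 of 6 members, Trpv4, was past 2-fold higher, where 9.41% of 13470 genes were higher and 9.52% lower. It had 7.47 CPM under tail suspension and 3.08 CPM under non-tail suspension, from 47 and 75 UMIs, a log2 ratio of 1.28 (0.72 to 1.82). In the Thbs4 and Cthrc1 cluster it was at 4.37 and 2.79 CPM (8 and 66 UMIs) and in the Angptl7 and Chad cluster at 8.74 and 12.8 CPM (39 and 9 UMIs), with overlapping intervals in each. The class ratio was 0.57 and 0.05 with cells thinned to 2000 and 1000 UMIs, 0.55 with the libraries clustered separately and -0.36 with broader clusters (resolution 0.5), so the 2-fold call was lost in 4 of 11 alternatives. The 10 sheath or lining markers, with none at 0, summed to 17235 CPM in tenocyte-like cells under tail suspension and 2203 CPM under non-tail suspension. Here and below, a marker is at 0 only when neither library has a UMI of it in the class. The 8 osteoblast markers, with none at 0, summed to 1980 and 30.7 CPM. Single genes can carry such sums. In the whole lineage under tail suspension, Prg4 gave 28901 of the 30806 CPM of the sheath or lining list. There Ibsp gave 128 of the 199 CPM of the osteoblast list. The part of these markers in the class ratios was not tested. Pkd2 had a log2 ratio of 0.50 (0.42 to 0.58), Trpm7 of 0.63 (0.49 to 0.77) and Piezo1 of 0.43 (0.27 to 0.60). The Pkd2 ratio was -0.07 at resolution 0.5 and 0.02 at resolution 2.0, the Trpm7 ratio 0.24 at resolution 0.5, and the Piezo1 ratio 0.01 with cells thinned to 1000 UMIs.

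In macrophage-like cells 3 of the 5 measured members were past 2-fold higher under tail suspension and none was lower, where 21.3% of 12869 genes were past 2-fold in either direction. Trpv4 had 22.9 CPM under tail suspension and 10.9 CPM under non-tail suspension, a log2 ratio of 1.08 (0.85 to 1.31). Pkd1 had 25.4 and 10.8 CPM, with 1.24 (1.01 to 1.46), and Pkd2 had 24.1 and 9.95 CPM, with 1.28 (1.04 to 1.51). Trpm7 had 87.1 and 44.5 CPM, just inside the threshold at 0.97 (0.85 to 1.08), and Piezo1 had 59.1 and 45.3 CPM, with 0.38 (0.26 to 0.51). The median gene of the class was itself 0.31 higher, and scaling by the median ratio lowered every value by 0.28, to 0.80 for Trpv4, 0.96 for Pkd1, 0.996 for Pkd2, 0.69 for Trpm7 and 0.10 for Piezo1. Over 13 alternatives the 2-fold call was lost in 7 for Trpv4, with 0.49 as the lowest ratio, in 3 for Pkd1 and in 2 for Pkd2, and Trpm7 passed it in 7.

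Different clusters held the macrophage-like cells of each library, cluster 1 with 1494 cells under tail suspension and 175 under non-tail suspension, and cluster 8 with 216 and 1711. The mean log2 ratio within these clusters was 0.90 for Trpm7, 0.54 for Trpv4, 0.53 for Pkd2, 0.48 for Pkd1 and 0.14 for Piezo1, above 0 in both clusters for all 5. Only Trpm7 had both intervals above 0, while Piezo1, Pkd1 and Pkd2 had 1 of 2 and Trpv4 0 of 2. None of the 3 members past 2-fold in the pooled class was past it in these means. The 18 fibroblast markers, of which none was at 0, summed to 1467 CPM in macrophage-like cells under tail suspension and 658 CPM under non-tail suspension, and the 10 sheath or lining markers, again with none at 0, to 1011 and 245 CPM. Over all kept cells Prg4 alone gave 20280 of the 21543 CPM of the sheath or lining list under tail suspension. The part of such marker RNA in the Pkd1 and Pkd2 values was not tested.

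Trpm7 was above 0 in each of the 9 classes compared, and its interval lay above 0 in 7 of them. Of 6302 genes measured in all 9 classes, 9.73% were above 0 in every class. Its log2 ratios ran between 0.17 in B cell-like cells (-0.41 to 0.78) and 0.97 in macrophage-like cells. The B cell-like ratio turned to -0.22 and -0.67 with cells thinned to 2000 and 1000 UMIs. In T cell-like cells it had 95.7 CPM under tail suspension and 67.3 CPM under non-tail suspension, a log2 ratio of 0.51 (0.29 to 0.73). In monocyte-like cells it had 84.6 and 47.5 CPM, with 0.83 (0.57 to 1.10), and in neutrophil-like cells 42.4 and 32.7 CPM, with 0.38 (0.18 to 0.57). Trpv4 was above 0 in all 5 classes in which it was measured, and Piezo1, Pkd1 and Pkd2 in 8 of 9, 8 of 9 and 7 of 8. Over single clusters Trpm7 was above 0 in 18 of 21, with 12 intervals above 0 and 0 below. Apart from the 9-class count of Trpm7, no share of all genes was taken beside these counts. The median gene itself ran between -0.14 in B cell-like and 0.31 in macrophage-like cells, so the counts are not read as particular to the channels.

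Among other classes, members were past 2-fold in 4 cases. Trpv4 in monocyte-like cells had 29 UMIs under tail suspension and 0 under non-tail suspension. With the empty library set to a floor of 3 UMIs it was 5.12-fold higher, a log2 ratio of 2.36. The interval of that ratio began at 1.97 and had no upper end. In this class 1 of 5 measured members was higher, where 9.74% of genes were. The call was lost when the libraries were clustered separately (log2 ratio 0.84), and the ratio was 1.61 at resolution 0.5 and 1.36 at resolution 2.0. The 12 macrophage markers, with none at 0, summed to 9353 CPM in monocyte-like cells under tail suspension and 3595 CPM under non-tail suspension, and their part in the Trpv4 value was not tested. Piezo1 in B cell-like cells had 21 and 4 UMIs, a log2 ratio of 1.92 (0.36 to 3.93), 1 of 3 members measured, where 10.7% of genes were higher. Trpv4 in a cluster led by MHC class II genes had 7.59 and 3.44 CPM, a log2 ratio of 1.14 (0.20 to 2.25) from 93 and 10 UMIs, 1 of 5 members, where 8.84% of genes were higher. Piezo2 in a shallow cluster with collagen transcripts (median 1339 UMIs per cell) had 15 and 10 UMIs, a log2 ratio of -1.80 (-3.05 to -0.49), 1 of 5 members, where 7.97% of genes were lower. As a mean over cells the ratio was -0.35, within 2-fold. That cluster carried fibroblast markers but was left unnamed, and so outside the fibroblast lineage, for its low depth. In T cell-like cells 0 of 4 measured members were past 2-fold, where 8.50% of genes were higher and 4.48% lower, and in neutrophil-like cells 0 of 4, where 30.7% were.

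**Figure D4:**
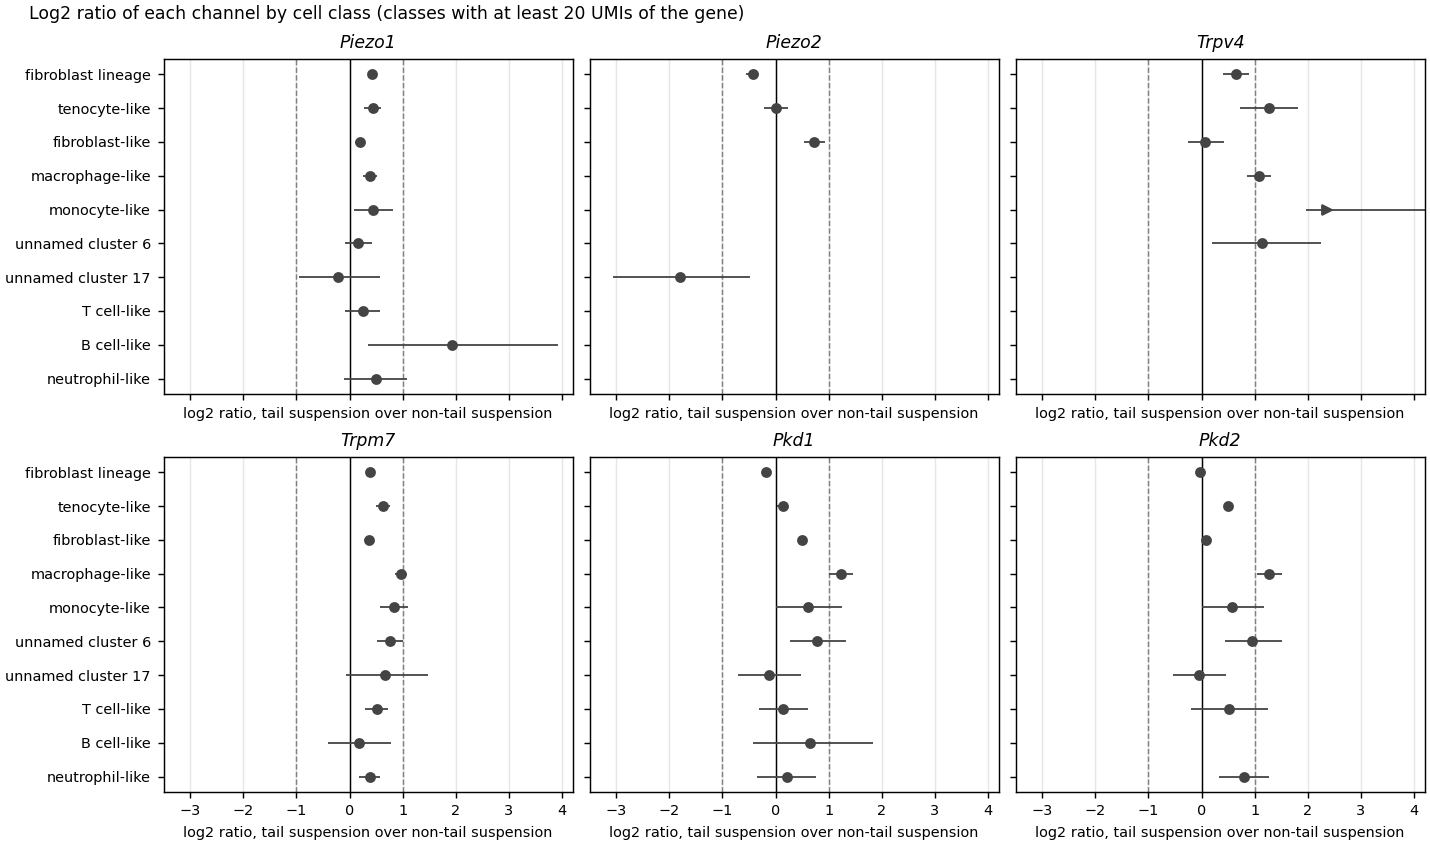
Log2 ratio, TS over NTS (x axis), for each channel in the lineage and in 9 classes with at least 100 cells of each library (rows); bars are exact 95% intervals of counting error, dashed lines mark 2-fold, and rows with under 20 UMIs are left empty. The triangle for Trpv4 in monocyte-like cells sets the 0 UMIs under non-tail suspension to 3, and its interval has no upper end. Trpm7 lies right of 0 in every row.

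The share of cells with at least 1 UMI of a member depended on depth. In the lineage 45.4% of cells under tail suspension and 61.9% under non-tail suspension had a Piezo1 UMI, the reverse of the CPM order. With each cell thinned to 1000 UMIs the shares were 5.09% (4.55 to 5.67) and 4.62% (3.73 to 5.66), with overlapping intervals, in 6171 and 1926 cells. Trpm7 was found in 57.6% and 72.8% of cells, and in 8.25% (7.57 to 8.96) and 5.97% (4.95 to 7.12) after thinning, when the intervals no longer overlapped. Pkd2 was found in 73.0% and 91.1% of cells, and in 15.5% and 16.3% after thinning. Piezo2 was found in 12.2% and 25.8%, and in 1.62% and 1.92% after thinning, and Trpv4 in 7.2% and 8.59%, and in 0.47% and 0.31%. In neutrophil-like cells (median 4252 and 2812 UMIs) thinned shares were 0.51% and 0.21% for Piezo1 and 1.01% and 0.67% for Pkd2. They were 4.12% and 2.99% for Trpm7, which lay closer to its lineage shares.

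Genes related to the members were read by list in the pooled lineage. There the median gene was at 0.07, and 17.4% of 16392 genes were past 2-fold in either direction. The share of all genes above 0 was not taken beside the list counts. The lists read otherwise within the classes of the lineage. Medians in fibroblast-like and tenocyte-like cells were 0.09 and 0.11 for other channels and 0.05 and -0.25 for binding proteins. They were 0.14 and 0.16 for calcium genes and 0.09 and 0.29 for cilium genes. They were 0.19 and -0.20 for magnesium and zinc transporters and 0.11 and -0.23 for load targets. The genes with extreme ratios also differed by class. Of 19 other mechanically gated or stretch-linked channels measured, 13 were above 0 and 6 below, with a median of 0.30, 1 past 2-fold higher and 1 lower. Trpc6, a diacylglycerol-gated cation channel, had 2.35 CPM under tail suspension and 1.13 CPM under non-tail suspension (log2 ratio 1.05), and Trpm3 5.40 and 2.89 CPM (0.90). Trpm6, the magnesium channel nearest to Trpm7, had 2.24 and 4.5 CPM (-1.01), and Trpv2 1.82 and 3.26 CPM (-0.84). Of 25 proteins that bind or tune the members, 12 were above 0 and 13 below, with a median of -0.00, 3 past 2-fold higher and 1 lower. Map7, a microtubule-binding partner of Trpv4, had 7.64 and 2.71 CPM (1.5), and Mdfi, a relative of the Piezo subunit Mdfic, had 2.09 and 6.03 CPM (-1.53). Cdh1, highest in ratio at 2.45, had 20 and 2 UMIs, and Ptp4a1 was at 0.75 and 1.25 CPM (-0.74).

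Of 30 calcium handling and calcineurin-NFAT genes, 22 were above 0 and 8 below, with a median of 0.27 and 0 past 2-fold. Stim1, the calcium sensor of the endoplasmic reticulum, had 37.1 CPM under tail suspension and 18.9 CPM under non-tail suspension (0.97), and the calcineurin subunit Ppp3r1 57.8 and 38.5 CPM (0.59). Nfatc4 had 24.7 and 46.7 CPM (-0.92) and the kinase Camk2g 15.8 and 25.1 CPM (-0.67). Of 34 primary cilium genes, 24 were above 0 and 10 below, with a median of 0.18 and 1 past 2-fold. That was the hedgehog target Gli1 at 2.10 and 1.03 CPM (1.02), followed by the ciliary gate gene Cc2d2a at 40.8 and 23.0 CPM (0.83). The hedgehog transducer Smo had 24.7 and 39.7 CPM (-0.69) and the ciliary GTPase Arl3 59.0 and 83.8 CPM (-0.51).

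Of 14 magnesium and zinc transporters, 7 were above 0 and 7 below, with a median of 0.03 and 1 past 2-fold lower. The zinc exporter Slc30a1 had 14.4 CPM under tail suspension and 7.86 CPM under non-tail suspension (0.87) and Slc39a6 67.0 and 42.7 CPM (0.65). Cnnm2 had 4.23 and 11.4 CPM (-1.43) and Slc39a10 11.4 and 22.6 CPM (-0.98). Of 25 load and strain targets, 12 were above 0 and 13 below, with a median of -0.11, 2 past 2-fold higher and 5 lower. Bmp2 had 104 and 46.8 CPM (1.15), and Ankrd1 78 and 2 UMIs (4.42). The smooth muscle actin gene Acta2 had 15.3 and 54.9 CPM (-1.84) and Tagln 13.7 and 43.4 CPM (-1.67). Mural marker genes, of which Acta2 and Tagln are part, summed to 98.3 CPM in the lineage under tail suspension and 157 CPM under non-tail suspension, with 0 of 9 at 0, and their part was not tested.

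**Figure D5:**
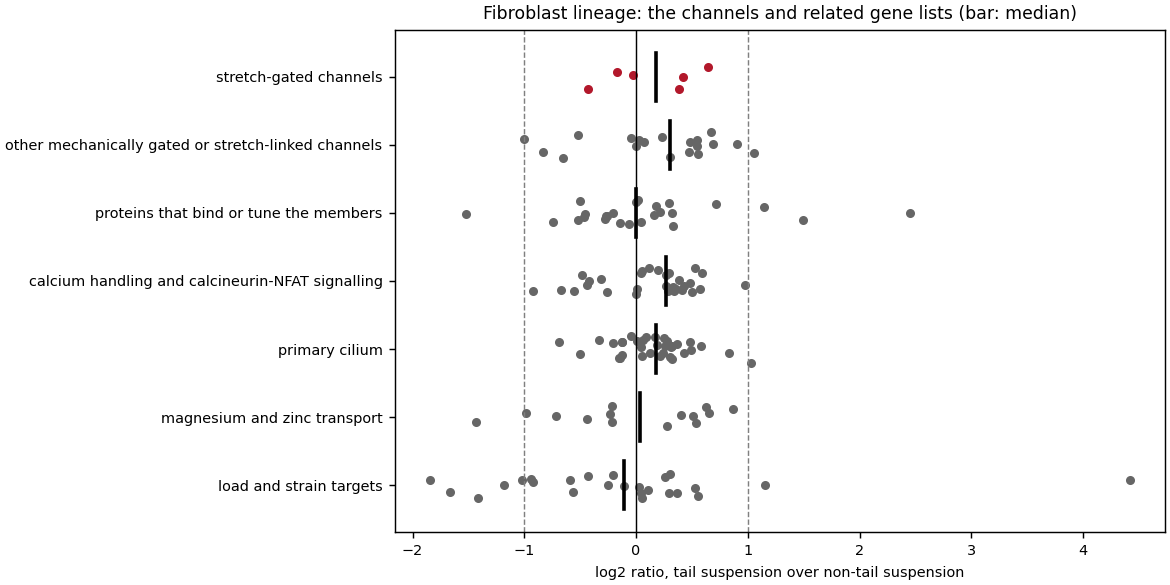
Log2 ratio, TS over NTS (x axis), in the fibroblast lineage for the 6 channels (top row, red) and for the measured genes of 6 related lists (grey); each point is a gene, black bars are medians and dashed lines mark 2-fold. The channels lie between -0.43 and 0.64, with a median of 0.18.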

How the data were processed

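The deposited files hold raw UMI counts per gene and cell for each library, per the file headers. Cell Ranger 5.0.1 and build GRCm38 are named in the submitters' processing notes, while the matrix header gives software version 3.1.0. The members and lists were chosen with earlier results of these data known. Doublets were removed with Scrublet (492 cells under tail suspension and 133 under non-tail suspension). Both libraries were clustered together in scanpy 1.11.5 (2000 variable genes, 30 principal components, 15 neighbours, Leiden resolution 1.0). A cluster was named when at least 3 markers of a class were among its top 50 genes and that class led, by a rule set after the clusters were seen. A cluster far shallower than its library was left unnamed if its top 10 genes held no marker of the leading class. The shallow collagen cluster, with 6 fibroblast markers in its top 50 genes, was kept out of the fibroblast lineage in this way. UMIs were summed per class and library. Ratios needed 100 cells in each library and 20 UMIs of the gene. A count of 0 was set to 3 UMIs for the estimate, and no ratio was given where the other library was at or under that floor. Intervals were exact Poisson, Clopper-Pearson or conditional binomial at 95%, and cover counting error alone. For each list the 2 highest and 2 lowest ratios are named, and for each member the 5 genes most alike. The ratio code was tested on simulated data. Alternatives covered scaling, thinning, filters, doublets and clustering.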

Additional observations from a re-analysis of the deposited data

Results flagged for a closer look

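The log2 ratio (TS over NTS) of 3 members lay on opposite sides of 0, beyond counting error, in different fibroblast-lineage clusters. For each member the highest and lowest ratios among clusters with intervals off 0 were taken, so the gaps are picked extremes. For Piezo2 the log2 ratio was 0.88 in the Thbs4 and Cthrc1 cluster and -0.89 in the Pi16 and Clec3b cluster, a gap of 1.77. For Pkd1 it was 0.62 in the Prg4 and Clic5 cluster and -0.47 in the Cxcl14 and Apod cluster, a gap of 1.09. For Pkd2 it was 0.75 in the Thbs4 and Cthrc1 cluster and -0.19 in the Pi16 and Clec3b cluster, a gap of 0.94. The intervals of the lower ratios ended close to 0, at -0.03 for Piezo2, -0.02 for Pkd1 and -0.002 for Pkd2. With 1 library in each group the difference between clusters was not tested.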

How the results depend on the processing

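The count of members past 2-fold in the fibroblast lineage was 0, and became 1 where each library was clustered on its own (Piezo2, log2 ratio -1.11) and 1 with a threshold of 1.5-fold. The median log2 ratio of the members, 0.18, became 0.48 with doublets kept, 0.51 at Leiden resolution 0.5 and 0.042 when the libraries were clustered separately. Those settings redraw the lineage itself; the lineage ratio of Piezo2 then ran between -1.11 and 0.68 and that of Pkd1 between -0.68 and 0.76. Under the 13 alternatives run, Piezo1 (0.20 to 0.56), Trpv4 (0.47 to 0.98) and Trpm7 (0.26 to 0.53) kept their sign in the lineage. The tenocyte-like ratio of Trpv4 turned to -0.36 at resolution 0.5. The mean within clusters of macrophage-like cells was chosen after seeing the data. No paired analysis was possible because each group is 1 library. Leaving out a library was not possible for the same reason. Trpv4 is limited by depth, with 189 UMIs in the non-tail suspension lineage.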
